A study of Equus asinus with 6 samples.

Results

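The tissue inhibitors of metalloproteinases (TIMPs) are a family of 4 secreted proteins, TIMP1, TIMP2, TIMP3 and TIMP4, and all 4 were found by gene name among the 20873 genes of the count table. TIMP4 was chosen by its measured values, a low level in every library of high intramuscular fat, so its difference between the groups is given as a description with no test. TIMP1, TIMP2 and TIMP3 were taken as the rest of the family by name.

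The tissue was longissimus dorsi, a long back muscle, taken from donkeys (Equus asinus) of the Chinese Guangling breed at 24 months of age, and its RNA was sequenced. There are 3 libraries from muscle rich in intramuscular fat (high IMF), the fat between and within muscle fibres, and 3 from muscle poor in it (low IMF). The groups share breed, age and tissue, and the labels name no treatment or genotype. The sources used here give neither the measured fat content nor the sex of the animals, and do not say whether each library is a separate animal, so a p-value speaks only of the spread among the 6 libraries.

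TIMPs bind the catalytic site of matrix metalloproteinases (MMPs), the enzymes that cut collagen and other proteins around cells, and thereby hold back the turnover of the extracellular matrix. TIMP1 is an inducible, soluble inhibitor that also signals through the tetraspanin CD63. TIMP2 inhibits MMPs and, together with the membrane protease MMP14, takes part in the activation of pro-MMP2. TIMP3 binds tightly to the matrix and inhibits the ADAM and ADAMTS proteases as well, among them ADAM17 and the aggrecan-cutting ADAMTS4 and ADAMTS5. TIMP4 has the most restricted tissue range, with striated muscle and fat among its known sites of expression.

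The libraries held 39052998 to 47494157 assigned reads. All 8 skeletal fibre markers were present, with a summed level of 82650 to 141400 CPM (read counts scaled to a common library total by TMM) in high IMF libraries and 109400 to 157300 CPM in low IMF libraries. The 8 adipocyte markers summed to 222.9, 638.5 and 75.5 CPM in high IMF replicates 1 to 3, against 143.6, 209.6 and 169.4 CPM in low IMF replicates 1 to 3. The library labelled high IMF replicate 3 thus lay below every low IMF library in fat cell transcripts, and values without it are given below. Low IMF replicates 2 and 3 were far more alike than any other pair (chi-square of 7.7 per degree of freedom over genes, against 192.6 to 559.6 for the other pairs of 1 group). They still differed by more than counting noise and were kept as 2 libraries.

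TIMP4 was chosen for its low level in every high IMF library, so its separation of the groups follows from that choice. The spread, gap, fold and rank given here come from the same values and only describe them. TIMP4 varied little inside either group. It measured 34.6, 39.9 and 30.5 CPM in high IMF replicates 1 to 3, against 128.8, 105.3 and 103.9 CPM in low IMF replicates 1 to 3. All 3 high IMF libraries lay below all 3 low IMF libraries, and the lowest low IMF library was 2.61 times the highest high IMF library. The mean was 35.0 ± 4.69 CPM in high IMF muscle and 113 ± 14 CPM in low IMF muscle (SD, n = 3 each), a log2 fold of -1.69 or 3.22-fold lower in high IMF muscle. Within a group the highest library exceeded the lowest by 1.31 times in high IMF muscle and by 1.24 times in low IMF muscle. Of the 15933 genes that passed the low-count filter, 88 had a lower log2 fold than TIMP4, and 51 of these averaged at least 1 CPM. The values rest on 1054 to 2126 reads in high IMF libraries and 4273 to 6181 reads in low IMF libraries. Without high IMF replicate 3 the log2 fold was -1.6. The authors' deposited table marked TIMP4 as down, with a log2 fold of -1.7, and marked no other TIMP. That mark rests on the same libraries from which TIMP4 was chosen, so it is no separate evidence.

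TIMP3, the matrix-bound member, was also lower in every high IMF library, by a smaller factor. It measured 322.6, 363.8 and 241.2 CPM in high IMF replicates 1 to 3, against 495.8, 473.5 and 438.1 CPM in low IMF replicates 1 to 3. The groups did not overlap, but the gap was narrow: the lowest low IMF library was 1.2 times the highest high IMF library. The mean was 309 ± 62.4 CPM in high IMF muscle and 469 ± 29.1 CPM in low IMF muscle (SD, n = 3 each). The log2 fold was -0.60 (SE 0.21, 95% interval -1.1 to -0.10), with an unadjusted p of 0.0251 and a Benjamini-Hochberg adjusted p of 0.613 in the quasi-likelihood test of edgeR, so TIMP3 did not pass. Groups with high below low and no overlap were found for 6.1% of all genes tested, and an unadjusted p under 0.05 with a lower level in high IMF muscle for 2.74%. Without high IMF replicate 3 the log2 fold was -0.46 with an edgeR adjusted p of 0.347.

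TIMP2, the partner of MMP14 at the cell surface, did not separate the groups. It measured 182.3, 194.5 and 65.6 CPM in high IMF replicates 1 to 3, against 116, 195 and 204.3 CPM in low IMF replicates 1 to 3. The low values came from 1 library on each side, high IMF replicate 3 and low IMF replicate 1, and the other 4 libraries lay within 182.3 to 204.3 CPM. The log2 fold was -0.22 (SE 0.42, 95% interval -1.21 to 0.77; edgeR adjusted p = 0.956), an interval that holds more than a doubling of low IMF over high IMF muscle as well as a rise. Its direction turned without high IMF replicate 3, where the log2 fold was 0.13, and was 0.00 when libraries were scaled by total reads only, a scaling that moved the median of all genes to 0.15.

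TIMP1, the inducible member, was the scarcest of the 4. It measured 4.57, 3.49 and 2.03 CPM in high IMF replicates 1 to 3, against 2.54, 2.79 and 2.31 CPM in low IMF replicates 1 to 3. Of the high IMF libraries, replicates 1 and 2 lay above every low IMF library and replicate 3 below all of them. The counts behind these levels were 70 to 207 reads in high IMF libraries and 95 to 122 reads in low IMF libraries, the thinnest evidence in the family. The log2 fold was 0.40 (SE 0.35, 95% interval -0.42 to 1.23; edgeR adjusted p = 0.897). Without high IMF replicate 1 it was 0.11, and without high IMF replicate 3 it was 0.66 (edgeR adjusted p = 0.409).

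**Figure D1:**
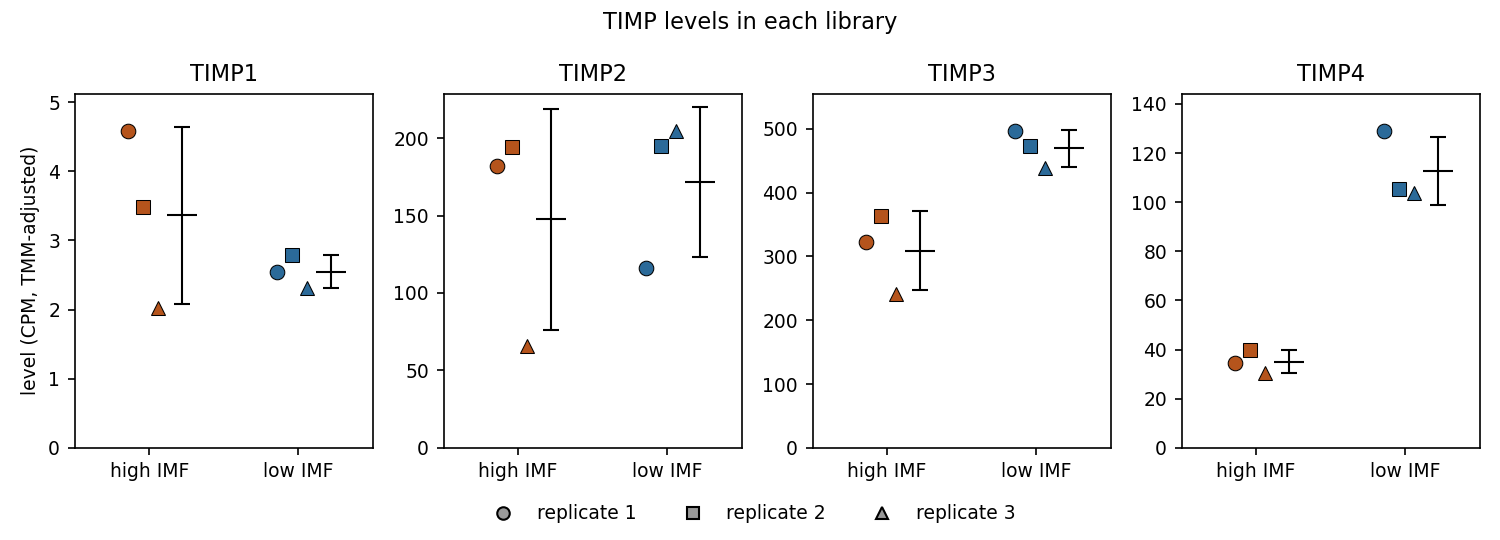
Level of each TIMP transcript (CPM, linear axis from 0, own scale per panel) in the 3 high IMF libraries (left) and the 3 low IMF libraries (right); symbols mark the replicate number and the bar is the mean with its SD. TIMP4 lies at 30.5 to 39.9 CPM in high IMF and 103.9 to 128.8 CPM in low IMF libraries, TIMP3 is separate by a narrow gap, and TIMP2 and TIMP1 overlap.

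Among all genes tested, edgeR called 0 of 15933 (0%) at an adjusted p under 0.05, with 1158 genes (7.27%) reaching an unadjusted p under 0.05. limma-voom also called 0%. The Wald test of DESeq2 called 194 of 16775 genes (1.16%). Neither TIMP1, TIMP2 nor TIMP3 was among them, with DESeq2 adjusted p of 0.976, 0.998 and 0.227. The median log2 fold over all genes was 0.01, with 48.8% of genes below 0 and 51.2% above; of the 4 family members 3 lay below 0 and 1 above.

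**Figure D2:**
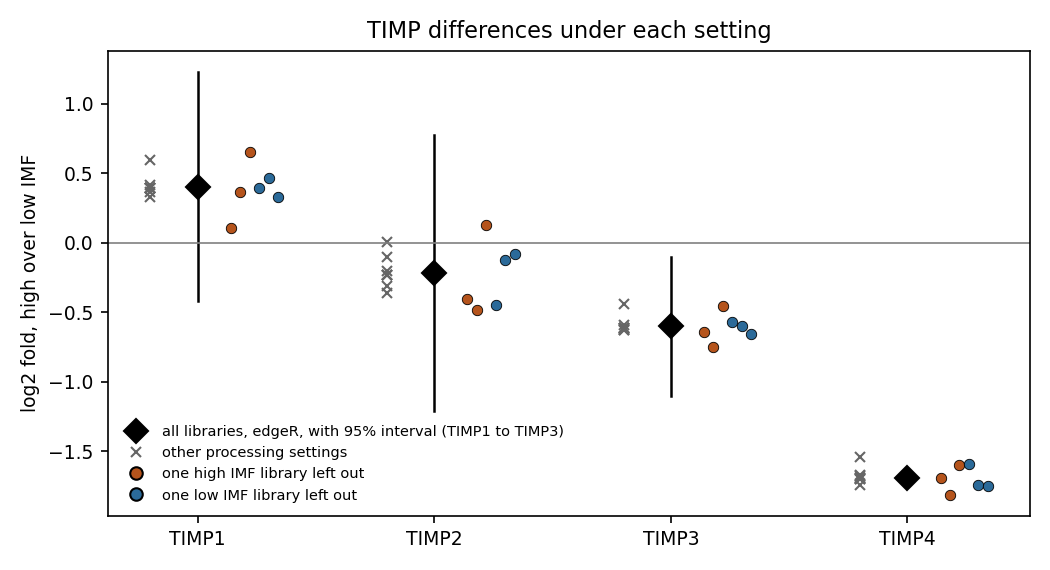
Log2 fold of high over low IMF for each TIMP. The diamond is the edgeR fit on all 6 libraries with its 95% interval (none is drawn for TIMP4, which was picked for this difference), circles leave out 1 library each and crosses use another processing setting. TIMP4 stays between -1.81 and -1.54 and TIMP3 between -0.75 and -0.44, while TIMP2 crosses 0.

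Levels of different genes were compared on the deposited FPKM scale, which divides reads by gene length and library total. TIMP3 was the most abundant TIMP transcript in all 6 libraries, with 44.6 to 85.8 FPKM in high IMF and 85.3 to 107.8 FPKM in low IMF libraries. It made up 66.9% to 76.5% of the summed TIMP FPKM in high IMF libraries and 66.2% to 72.3% in low IMF libraries. TIMP2 came next with 7.65 to 28.9 FPKM in high IMF and 15.9 to 25.1 FPKM in low IMF libraries. TIMP4 had 4.73 to 7.89 FPKM in high IMF and 16.8 to 23.5 FPKM in low IMF libraries, and TIMP1 had 1.31 to 3.88 FPKM and 1.57 to 1.93 FPKM. TIMP3 therefore stood clear of the others and TIMP1 below them in every library, whereas TIMP2 and TIMP4 were not ordered beyond their spread in low IMF muscle: in low IMF replicate 1 TIMP4 (23.5 FPKM) exceeded TIMP2 (15.9 FPKM).

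The make-up of the family differed in its TIMP4 share, which follows from the choice of TIMP4. TIMP4 was 6.01%, 6.29% and 8.12% of the summed TIMP FPKM in high IMF replicates 1 to 3, against 15.8%, 12.7% and 13.2% in low IMF replicates 1 to 3. TIMP3 was 11.1, 10.9 and 9.42 times TIMP4 in the high IMF libraries and 4.59, 5.36 and 5.03 times in low IMF libraries. These ratios did not overlap, and since they contain TIMP4, this too is a description of the chosen values. The summed family measured 117.2, 125.5 and 58.3 FPKM in high IMF replicates 1 to 3, against 149.1, 131.7 and 128.9 FPKM in low IMF replicates 1 to 3. Of all libraries high IMF replicate 3 had the least, and FPKM carries no TMM scaling.

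**Figure D3:**
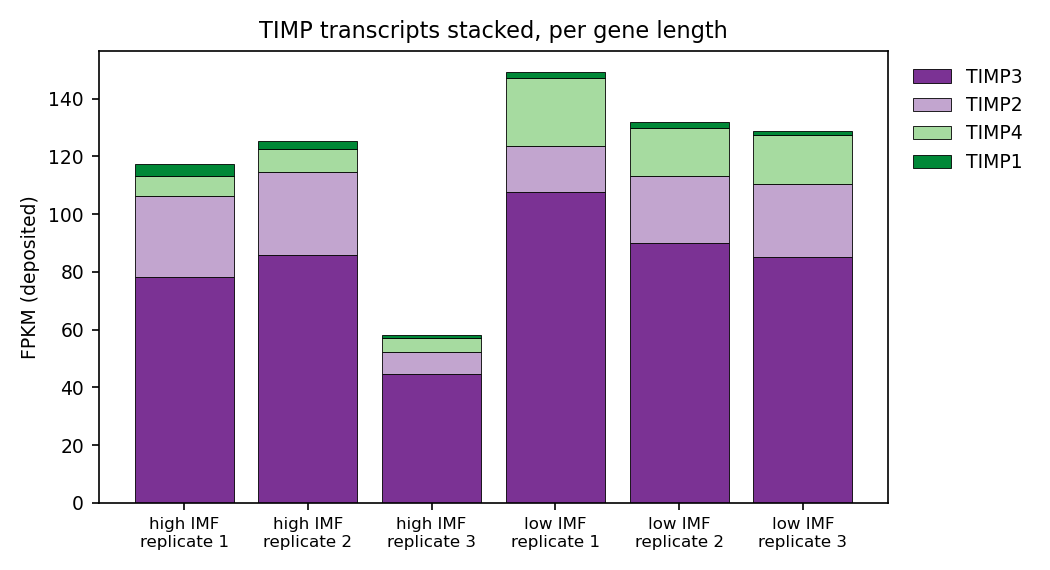
Deposited FPKM of the TIMP transcripts stacked for each library, high IMF libraries first. TIMP3 fills 66.2% to 76.5% of each bar, and the TIMP4 segment is 4.73 to 7.89 FPKM in high IMF and 16.8 to 23.5 FPKM in low IMF libraries.

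Of the listed genes of the MMP, ADAM and ADAMTS families, from which the proteases that TIMPs bind come, none passed in edgeR. The lists go by family name, and whether each product is an active protease that a TIMP binds was not checked. The MMP list had 15 of its 23 genes in the table and 12 tested, of which 8 had a positive and 4 a negative log2 fold (median 0.55, against 0.01 over all genes). The ADAM and ADAMTS list had all 30 genes tested, 22 positive and 8 negative, with a median of 0.51. An unadjusted p under 0.05 was reached by 5 higher genes of the lists, beside 4.53% of all genes tested, and by 1 lower gene, beside 2.74%. Of these 42 genes, 6 were higher without overlap, beside 6.86% of all genes tested, and 2 (MMP28 and ADAM10) were lower without overlap, beside 6.1%. DESeq2 called 2 of the genes, MMP15 and ADAMTS20, both higher in high IMF muscle, beside 1.16% of all genes it tested.

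MMP15, a membrane-type MMP, measured 107, 87.3 and 97.6 CPM in high IMF replicates 1 to 3, against 58.1, 59.6 and 57.2 CPM in low IMF replicates 1 to 3. The groups did not overlap, with a log2 fold of 0.74 (SE 0.15), an edgeR adjusted p of 0.504 and a DESeq2 adjusted p of 0.0131. ADAMTS20, a secreted protease of the matrix, averaged 21.2 ± 4.5 CPM in high IMF and 9.03 ± 2.89 CPM in low IMF muscle (SD, n = 3 each; edgeR adjusted p = 0.51, DESeq2 adjusted p = 0.0335). MMP28, also known as epilysin, was lower, averaging 5.93 ± 2.73 CPM in high IMF and 12.8 ± 1.38 CPM in low IMF muscle, without overlap (edgeR adjusted p = 0.527). The gelatinase MMP9 was scarce, with 14, 53 and 20 reads in the high IMF libraries and 2, 6 and 3 reads in low IMF libraries (edgeR adjusted p = 0.517).

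Of the 7 textbook targets tested, 6 had a positive log2 fold and 1, ADAM10, a negative one, and none passed. MMP2, the gelatinase activated with the help of TIMP2, measured 151, 123 and 38.4 CPM in high IMF replicates 1 to 3, against 31.2, 58 and 67.2 CPM in low IMF replicates 1 to 3 (edgeR adjusted p = 0.752). High IMF replicates 1 and 2 stood above the rest, and the remaining high IMF library fell inside the range of low IMF muscle. MMP14 averaged 18.9 ± 10.1 CPM in high IMF and 14.7 ± 3.75 CPM in low IMF muscle (edgeR adjusted p = 0.935; SD, n = 3 each). Of the TIMP3 targets, ADAM17 averaged 19.1 ± 3.52 and 18.4 ± 1.57 CPM, ADAMTS5 9.12 ± 6.81 and 5.69 ± 3.62 CPM, and ADAMTS4 17.2 ± 4.57 and 5.63 ± 4.46 CPM in high IMF and low IMF muscle. ADAMTS4 had all high IMF libraries above all low IMF libraries, with 0.584 CPM in low IMF replicate 1 (edgeR adjusted p = 0.75). ADAM10, another sheddase that TIMP3 and TIMP1 inhibit, was 20.9, 21.1 and 12.5 CPM in high IMF and 23.3, 23.9 and 23.3 CPM in low IMF libraries, lower without overlap (edgeR adjusted p = 0.825).

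Inhibitor and protease transcripts were also set against each other inside each library, as 5 FPKM ratios chosen after their values were seen, and only 2 of these, those of TIMP2, do not contain TIMP4. TIMP2 over MMP2 was 0.427, 0.559 and 0.605 in high IMF replicates 1 to 3, against 1.31, 1.19 and 1.07 in low IMF replicates 1 to 3. TIMP2 over MMP14 was 2.84, 2.97 and 3.45 in the high IMF libraries and 4.2, 4.63 and 4.4 in the low IMF libraries. TIMP2, MMP2 and MMP14 each overlapped between the groups, and both ratios were lower in every high IMF library. The share of other gene pairs whose ratios separate the groups in this way was not computed, so this describes chosen ratios. The summed TIMP family over the summed MMP genes was 0.861, 1.08 and 1.02 in the high IMF libraries, against 2.56, 2.19 and 2.03 in low IMF libraries. This last ratio contains TIMP4, which was picked for its difference, and these are ratios of transcript levels, not of protein or activity. Between inhibitors, TIMP3 over TIMP2 overlapped, with 2.81 to 5.83 in high IMF and 3.4 to 6.78 in low IMF libraries.

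**Figure D4:**
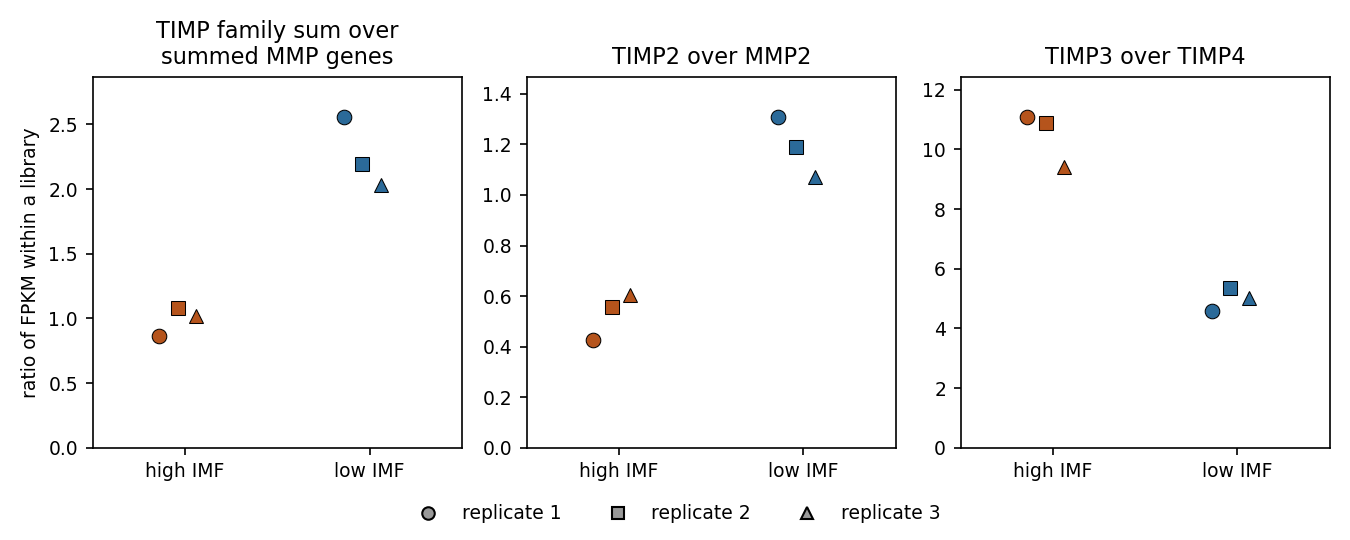
Ratios of deposited FPKM within each library (linear axes from 0) for the summed TIMP family over the summed MMP genes, TIMP2 over MMP2 and TIMP3 over TIMP4, high IMF left and low IMF right, symbols by replicate number. The first 2 ratios are lower in all high IMF libraries (0.861 to 1.08 against 2.03 to 2.56, and 0.427 to 0.605 against 1.07 to 1.31), and the third is higher (9.42 to 11.1 against 4.59 to 5.36). The family sum and the third ratio contain TIMP4, which was chosen for its level.

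Other inhibitors and partners of the family did not pass either. Of the list of further inhibitors and related matrix genes, 7 of 8 were tested, 4 positive and 3 negative. SPOCK2, a matrix proteoglycan, had the smallest p of them and measured 22.3, 25.5 and 12.5 CPM in high IMF and 24.2, 41.6 and 37.9 CPM in low IMF libraries (edgeR adjusted p = 0.655). PCOLCE2, an enhancer of procollagen processing, measured 81, 22.7 and 3.33 CPM in high IMF and 3.56, 11.5 and 10.2 CPM in low IMF libraries, so that its mean rested on high IMF replicate 1 (edgeR adjusted p = 0.74). PCOLCE and the broad protease trap A2M had edgeR adjusted p of 0.867 and 0.868.

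Of 8 surface and matrix partners tested, 5 had a positive and 3 a negative log2 fold (median 0.15). EFEMP1, a matrix protein that binds TIMP3, averaged 50.3 ± 36.6 CPM in high IMF and 24.1 ± 9.34 CPM in low IMF muscle (edgeR adjusted p = 0.851; SD, n = 3 each). LRP1, the endocytic receptor that clears TIMP and MMP complexes, averaged 217 ± 108 and 161 ± 62.9 CPM (edgeR adjusted p = 0.919). KDR, the VEGF receptor that TIMP3 can block, averaged 76.8 ± 36.3 and 64.6 ± 4.08 CPM (edgeR adjusted p = 0.936), and the integrin chain ITGA3 6.1 ± 0.385 and 7.12 ± 1.9 CPM (edgeR adjusted p = 0.921). Of the genes of plasminogen activation, which lies upstream of MMPs, 6 were tested, 4 positive and 2 negative. The edgeR adjusted p was 0.97 for PLAT, 0.929 for SERPINF2 and 0.935 for PLAUR.

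TIMP1, TIMP3 and TIMP4 each lie inside a synapsin gene (SYN1, SYN3 and SYN2) in the RefSeq annotation of the donkey assembly EquAss-T2T_v2, as they do in human and mouse. The sources used here do not say how the counting treated strand, so reads from a TIMP gene and its host cannot be told apart where they overlap. SYN2, the host of TIMP4, had 119, 122 and 41 reads in high IMF and 60, 67 and 90 reads in low IMF libraries, far fewer than TIMP4, and its groups overlapped (edgeR adjusted p = 0.942). SYN3, the host of TIMP3, had 0, 8 and 0 reads in high IMF and 2, 0 and 0 reads in low IMF libraries, too few to be tested. SYN1 had 267, 747 and 398 reads in high IMF and 184, 330 and 391 reads in low IMF libraries. It was above TIMP1 in every library, and was the only synapsin host with more reads than its member. In the same annotation CEP295NL lies inside TIMP2 and the noncoding LOC123276397 overlaps it in part, and neither was among the counted genes. What any of these overlaps adds to a TIMP count was not tested. PPARG, the adipogenic receptor whose row follows TIMP4 in the table, averaged 6.17 ± 3.5 CPM in high IMF and 5.49 ± 0.464 CPM in low IMF muscle (edgeR adjusted p = 0.966; SD, n = 3 each).

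Muscle holds many cell types, and in whole tissue fewer cells of a type and less RNA per cell cannot be told apart. Most endothelial markers were lower in high IMF muscle, as were TIMP3 and TIMP4. Of 8 markers tested, 7 had a negative log2 fold and 1, KDR, a positive one. Among the 8, 4 (PECAM1, CLDN5, ESAM and FLT1) were lower in high IMF muscle without overlap, beside 6.1% of all genes tested. None passed in edgeR, and the markers were named after their values were seen. Their summed level was 876.4, 741.6 and 463.5 CPM in high IMF replicates 1 to 3, against 1036, 911.2 and 918.6 CPM in low IMF replicates 1 to 3. The sums did not overlap, and no marker was at 0. The 8 smooth muscle and pericyte markers had 2 positive and 6 negative log2 folds, with a summed level of 679.8 to 995.9 CPM in high IMF and 973.6 to 1488 CPM in low IMF libraries. A negative log2 fold was not particular to vascular markers. All 8 skeletal fibre markers had one too (median -0.313), each with overlap between the groups. The part of fibre content in any TIMP level was not tested.

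TIMP4 was also read as a percentage of these marker sums. Over the endothelial sum it was 3.95%, 5.38% and 6.59% in high IMF replicates 1 to 3, against 12.4%, 11.6% and 11.3% in low IMF replicates 1 to 3. Over the smooth muscle and pericyte sum it was 4.41%, 4.0% and 4.49% in the high IMF libraries and 13.2%, 7.08% and 7.77% in low IMF ones. The groups did not overlap on either scale, and since TIMP4 was chosen for its low level in every high IMF library, this is a description of the chosen values. Over the endothelial sum TIMP3 was 36.8%, 49.1% and 52.0% in the high IMF libraries and 47.9%, 52.0% and 47.7% in the low IMF libraries, and over the smooth muscle and pericyte sum 35.5% to 41.2% and 31.8% to 50.9%. Both TIMP3 percentages overlapped between high IMF and low IMF muscle. The part of vascular cell content in either TIMP level was not tested.

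**Figure D5:**
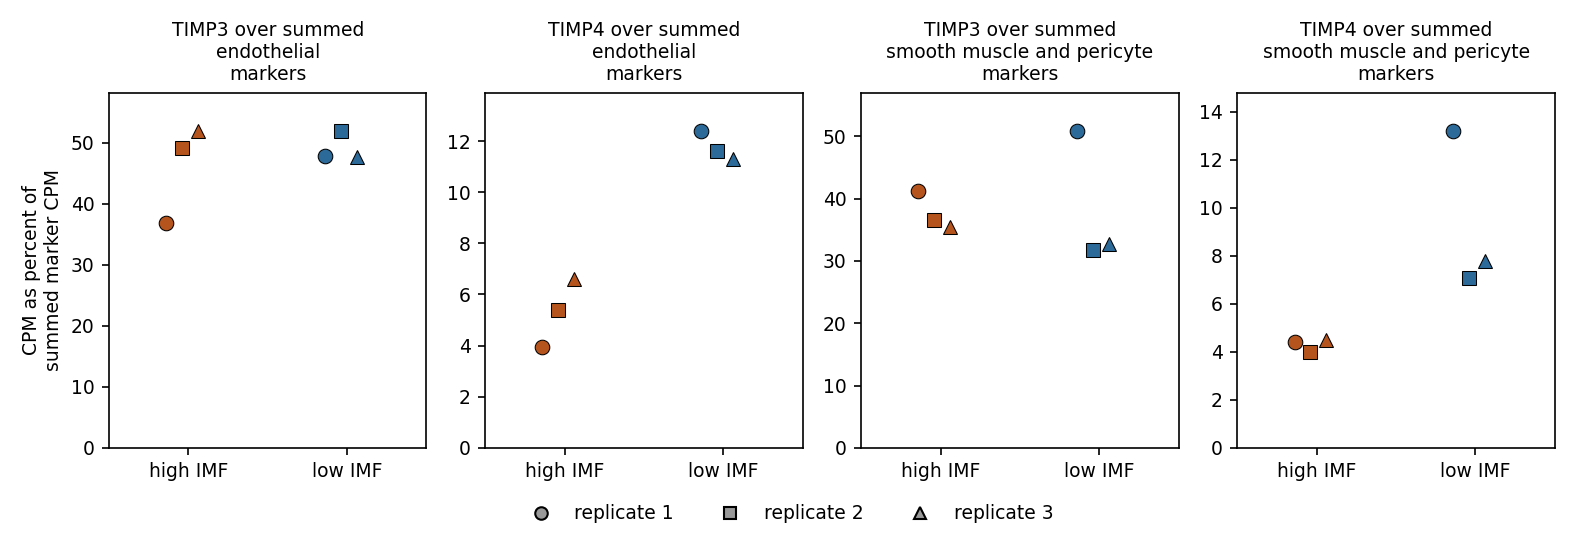
TIMP3 and TIMP4 as a percentage of the summed CPM of 8 endothelial or 8 smooth muscle and pericyte markers in each library (linear axes from 0, own scale per panel), high IMF left and low IMF right. TIMP4, chosen for its level, is lower in all high IMF libraries (3.95% to 6.59% against 11.3% to 12.4% of the endothelial sum), and TIMP3 overlaps between the groups.

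All 8 fibroblast markers had a positive log2 fold (median 0.87), with overlap between the groups, while that of TIMP2 was -0.22. They summed to 1424, 1152 and 261.3 CPM in high IMF replicates 1 to 3, against 312.7, 700.6 and 767.3 CPM in low IMF replicates 1 to 3. The libraries with the least fibroblast RNA, high IMF replicate 3 and low IMF replicate 1, were those with the least TIMP2. The proteoglycan decorin (DCN) had the same 2 libraries lowest, with 348, 386 and 70.9 CPM in high IMF and 120, 308 and 331 CPM in low IMF libraries. TIMP2 over DCN was 0.137 to 0.251 in high IMF and 0.167 to 0.261 in low IMF libraries on the FPKM scale and overlapped. As a percentage of the summed CPM of the 8 fibroblast markers, TIMP2 was 12.8%, 16.9% and 25.1% in high IMF replicates 1 to 3, against 37.1%, 27.8% and 26.6% in low IMF replicates 1 to 3, without overlap. The part of cell content in the TIMP2 level was not tested.

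Of the 8 adipocyte markers, 7 had a positive log2 fold, and LEP was at 0 in low IMF replicate 1. High IMF replicates 2 and 3 had the highest and the lowest of the adipocyte sums given above. They also had the highest and the lowest TIMP4 level among the high IMF libraries. The low IMF libraries went the other way, with the lowest adipocyte sum and the highest TIMP4 level both in replicate 1. The part of fat cell content in the TIMP4 level was not tested. Macrophage and myeloid markers summed to 23.7 to 120.5 CPM in high IMF and 27.5 to 31.8 CPM in low IMF libraries, and the highest sum and the highest TIMP1 level fell in the same library, high IMF replicate 1. Lymphocyte markers summed to 10.7 to 15.7 CPM in high IMF and 2.12 to 9.84 CPM in low IMF libraries, without overlap; their part in any TIMP level was not tested. Satellite cell sums overlapped, with 8.37 to 14.5 CPM in high IMF and 12.8 to 14.6 CPM in low IMF libraries, as did Schwann cell sums, with 3.71 to 128.5 and 57.6 to 95.2 CPM. The 3 tendon markers listed summed to at most 0.232 CPM in high IMF and 0.462 CPM in low IMF libraries.

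The genes most like each TIMP were ranked by Pearson correlation of log2 CPM over the 6 libraries among 12082 named genes of at least 1 CPM on average; with 6 points that share their libraries this is a description. For TIMP4 they were WFDC1 (r = 0.995), LNX1 (0.995), PPFIBP1 (0.994), SESN1 (0.993) and SERINC1 (0.991), all lower in high IMF muscle without overlap, as a close match to TIMP4 requires. SESN1, a stress-induced sestrin, measured 108, 128 and 101 CPM in high IMF and 272, 219 and 209 CPM in low IMF libraries. For TIMP3 they were VSTM4 (0.995), PDE11A (0.994), RAI14 (0.993), TSPAN13 (0.993) and PCDH17 (0.987). PCDH17, a protocadherin, measured 33.1, 40.3 and 21.1 CPM in high IMF and 74.4, 64.4 and 69.2 CPM in low IMF libraries.

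For TIMP2 the most alike genes were FGD5 (r = 0.995), PVRL3 (0.995), CPD (0.994), PTGIS (0.993) and TNKS1BP1 (0.993), each with overlap between the groups. PTGIS, the prostacyclin synthase, measured 37.3, 44.5 and 15.8 CPM in high IMF and 27.1, 43.1 and 41.8 CPM in low IMF libraries, with the same 2 low libraries as TIMP2. For TIMP1 they were DOPEY1 (0.989), IL17RA (0.988), DYNC2H1 (0.986), PTPRJ (0.984) and KLHL36 (0.984), also with overlap. Between members, r was 0.922 for TIMP3 with TIMP4, 0.591 for TIMP2 with TIMP3, 0.575 for TIMP1 with TIMP2 and -0.341 for TIMP1 with TIMP4. The value for TIMP3 with TIMP4 largely repeats that both were lower in all high IMF libraries.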

How the data were processed

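Read counts per gene in 6 muscle libraries were used as deposited by the authors. The submitters' processing notes name HISAT2 and the build mm9, a mouse build, whereas the deposited gene names are of donkey and horse; the sources used here do not give the genome used, the counter or the strand setting. The 6 per-sample tables equalled the series table (0 cells differed). The deposited FPKM values entered no test and served to compare genes. The authors' deposited fold (ratio) and log2 values are quoted only where named, and their deposited p-values were not used.

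Counts were tested with edgeR 4.0.16 in R 4.3.3 (TMM, filterByExpr, quasi-likelihood F-test, two-sided) over 15933 genes holding 99.96% of reads, Benjamini-Hochberg adjusted at 0.05. The SE is the log2 fold over the square root of F. Alternatives were DESeq2 1.42.0, on the whole table with its own filter, limma-voom 3.58.1, other scalings and filters, a replicate block, leaving out each library, and low IMF replicates 2 and 3 summed. The fits were also run on simulated data whose changed genes had far larger folds than TIMP1, TIMP2 and TIMP3. That run therefore does not show how well differences of their size are found. A count of 3 reads, the limit that 0 allows, is 0.0632 to 0.0768 CPM of total reads (counting error only). In all, 947 LOC numbers were matched to symbols by RefSeq gene identifier, SYN3 and A2M among them.

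Named genes are the members, the synapsins and PPARG, textbook targets, up to 4 genes of smallest p in each list (1 of them is not reported here), and the 5 genes most like each member; markers were named after their values were seen. The members and lists were chosen with earlier results of these data known.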

Additional observations from a re-analysis of the deposited data

How the results depend on the processing

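TIMP1, TIMP2 and TIMP3 stayed short of the threshold under every alternative run, and the TIMP4 log2 fold stayed between -1.81 and -1.54. TIMP1 ranged from 0.109 to 0.657 and TIMP3 from -0.751 to -0.456 over the fits that left out 1 library, and TIMP2 from -0.482 to 0.129. The direction of TIMP2 turned with library size only (log2 fold 0.00466), which moved the median of all genes to 0.15, and without high IMF replicate 3 (0.129). The number of genes called was 194 in DESeq2, 0 to 3 without 1 library (3 without high IMF replicate 1) and 0 in the other alternatives; of the metalloproteinase lists DESeq2 called 2 genes and every other setting 0, and no setting called a gene of the inhibitor and partner lists. The labels do not say whether the replicate numbers pair the libraries. Deviations of same-numbered libraries correlated at 0.196, 0.149 and 0.0197, and high IMF replicate 2 correlated best with low IMF replicate 3 (0.206). The deviations are taken from a group mean of 3 libraries, so these values cannot settle the pairing. With the replicate block the log2 folds were 0.333 for TIMP1, -0.312 for TIMP2, -0.62 for TIMP3 (edgeR adjusted p = 0.565) and -1.69 for TIMP4, and 0 genes were called. With low IMF replicates 2 and 3 summed, TIMP3 was -0.626 and TIMP4 -1.74. Depth limits TIMP1 most, at 70 to 207 reads a library.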
